A study of Mus musculus with 12 samples.

Results

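Genes of neuronal calcium handling were measured by RNAseq in the striatum and cortex of R6/2 mice, a model of Huntington's disease (HD), and of their WT littermates. The genes were all rows whose symbol starts with Cacna, Cacnb, Cacng, Ryr, Itpr, Camk, Atp2a or Atp2b and that match the names of voltage-gated calcium channel subunits, ryanodine receptors, IP3 receptors, calcium/calmodulin-dependent (CaM) kinases and their relatives, and the calcium pumps of the endoplasmic reticulum and the plasma membrane. The rule uses no measured value, and it took 53 of the 23282 rows. In R6/2 mice a transgene driven by the human HTT promoter encodes exon 1 of HTT with a long CAG tract, and the WT littermates lack it. HD mice were sampled at 8 weeks, which the labels call pre-symptom, and at 13 weeks, which they call post-symptom, with 2 libraries for each region and age. WT littermates gave 1 library for each region and age, so that tests against WT contain no spread among WT littermates within an age and region. Nothing in the labels tells whether a striatal and a cortical library of the same number share a mouse, whether tissue was pooled, or the sex. By reads of Xist and of Y-linked genes, replicate 1 of each HD group was male and replicate 2 female, whereas both 13-week WT libraries were female and both 8-week WT libraries male, so that age and sex cannot be told apart in WT mice.

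Libraries were made from total RNA with the Lexogen QuantSeq kit, which reads transcripts at their 3′ end, so that gene length does not enter the read number. Total counts lay between 8814386 and 12091201. Values below are CPM, counts scaled to library size with the trimmed mean of M values (TMM), and values of a pair of HD libraries are given as replicate 1, then replicate 2. Levels in bulk tissue do not separate fewer cells of a type from less RNA per cell. Of 12 marker genes of striatal projection neurons, 10 were measurable in the fit and all 10 were higher in striatum than in cortex, with Drd2 at 0 in striatal libraries of both genotypes and Gpr6 at 0 in the 4 HD striatal libraries, and 8 of 10 markers of cortical excitatory neurons were lower in striatum.

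One library stood apart. In replicate 2 of the 8-week HD striatum, all 7 thalamus markers and all 10 oligodendrocyte markers were higher than in replicate 1, with median log2 ratios of 4.45 and 2.33, and 10 of 12 striatal markers were lower, with a median over the list of -1.37. The summed level of the thalamus markers was 1055 CPM in it and 56.1 CPM in replicate 1. Among the calcium genes, replicate 2 exceeded replicate 1 most for Cacna1g, a low-voltage-activated channel, with a log2 ratio of 4.26, and for Camk2n2, with 2.32, and fell furthest below it for Cacna1e, with -2.30, and Camk1g, with -2.21. Its choroid plexus markers summed to 969 CPM, against 26.5 CPM in replicate 1. Genes whose calls changed without this library are named beside the results, except for the changes within 1 region, of which the counts are given. In replicate 2 of the 13-week HD cortex the choroid plexus markers summed to 3031 CPM, against 70.8 CPM in replicate 1, and their part in the results below was not tested.

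**Figure D1:**
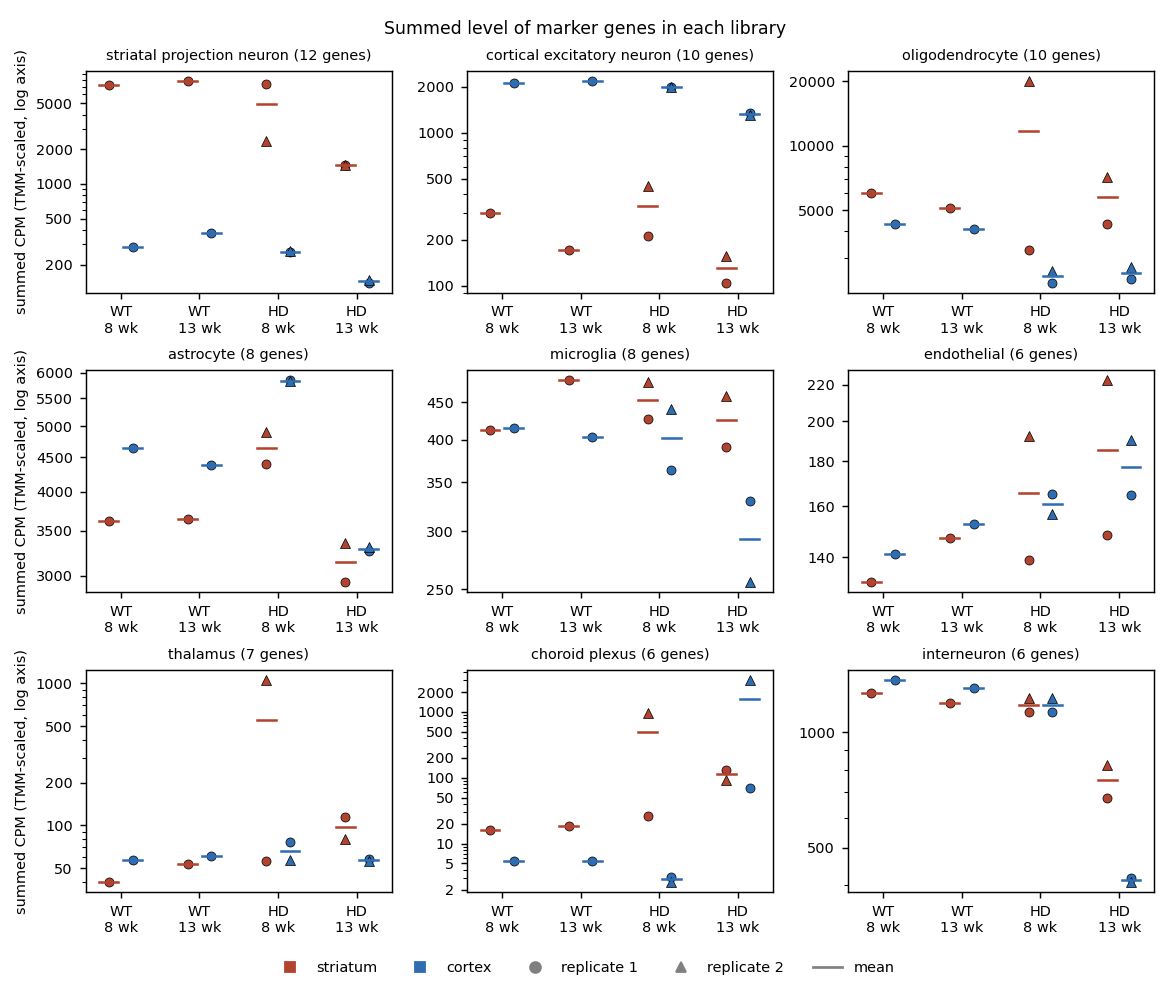
Summed CPM (TMM-scaled, log axis) of 9 lists of marker genes in each library, by genotype and age, with striatum in red, cortex in blue, circles for replicate 1, triangles for replicate 2 and bars for means. Replicate 2 of the 8-week HD striatum lies far above the other libraries for thalamus (1055 CPM) and oligodendrocyte markers (20161 CPM).

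Voltage-gated calcium channels open on depolarization. Their pore is an alpha1 subunit (Cacna1 genes), and alpha2delta and beta subunits bring it to the membrane and tune its gating. Most Cacng genes encode transmembrane AMPA receptor regulatory proteins (TARPs), which traffic glutamate receptors. Ryanodine and IP3 receptors release calcium from the endoplasmic reticulum, the SERCA pumps (Atp2a) refill this store, and the PMCA pumps (Atp2b) export calcium across the plasma membrane. Calcium bound to calmodulin activates CaMKII, a holoenzyme abundant at excitatory synapses, and the CaM kinase cascade, in which the kinase kinases Camkk1 and Camkk2 phosphorylate CaMKI and CaMKIV. Projection neurons of the striatum and pyramidal neurons of the cortex use all of these.

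The kinase kinases and Camk1g, a CaMKI isoform of neurons, were among the genes lower in 13-week HD mice. Promoters of these 3 genes are shown as a selection from 1 enzyme cascade, and each of the 3 fell in both comparisons. Camk4, of the same cascade, also fell in both, and its promoter was left out, so the 3 are not all that meet these conditions. The 250 bases upstream of each RefSeq start site in GRCm38 are printed 5′ to 3′ on the strand of the gene, with capitals for matches, on either strand, to the CRE motif TGACG, the SP1 box GGGCGG, the CCAAT box CCAAT or the TATA box TATAAA. The windows lie at chr5:122779411-122779660 on the minus strand (Camkk2), chr11:73018738-73018987 on the plus strand (Camkk1) and chr1:193370283-193370532 on the minus strand (Camk1g).
Camkk2: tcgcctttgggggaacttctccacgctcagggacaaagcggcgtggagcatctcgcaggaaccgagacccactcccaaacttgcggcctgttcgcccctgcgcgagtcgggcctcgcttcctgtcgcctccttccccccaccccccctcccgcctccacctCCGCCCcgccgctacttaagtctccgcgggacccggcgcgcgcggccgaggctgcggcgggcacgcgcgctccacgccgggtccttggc
Camkk1: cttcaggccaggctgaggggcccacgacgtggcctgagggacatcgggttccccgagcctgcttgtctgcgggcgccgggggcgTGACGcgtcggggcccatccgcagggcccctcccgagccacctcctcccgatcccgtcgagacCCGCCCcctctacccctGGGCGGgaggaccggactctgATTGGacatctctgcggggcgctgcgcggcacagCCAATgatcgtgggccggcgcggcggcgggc
Camk1g: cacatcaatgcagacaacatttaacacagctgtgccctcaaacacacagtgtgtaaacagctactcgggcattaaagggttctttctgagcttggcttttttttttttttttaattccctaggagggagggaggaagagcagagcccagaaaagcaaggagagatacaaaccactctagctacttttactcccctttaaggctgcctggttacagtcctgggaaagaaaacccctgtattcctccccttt
The Camkk1 window held 1 CRE motif, 2 SP1 boxes and 2 CCAAT boxes, the Camkk2 window held 1 SP1 box, and the Camk1g window held none of these letters. GC content was 74.4% for Camkk1, 72.4% for Camkk2 and 44.8% for Camk1g. Of the 53 genes, 39 had a promoter in the RefSeq table, with 52 windows. Over these windows the CRE motif occurred in 8, the SP1 box in 30, the CCAAT box in 12 and the TATA box in 1. Over all 32851 windows of the table the shares were 17.8%, 32.7%, 33.8% and 12.4%. These are matches of letters and no measure of binding.

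The first comparison asked how the genes differ between HD mice after and before symptom onset, over both regions. Of 48 genes tested in the 8 HD libraries, 16 were lower after onset and 1 was higher (edgeR quasi-likelihood test, Benjamini-Hochberg adjusted p under 0.05). The 1 higher gene, Cacng7, passed the count filter only through the 13-week libraries. The 16 are 33.3% of the genes tested, whereas 4.53% of all genes tested were lower and 1.93% were higher. The median log2 fold change was -0.63 over the 48 genes and 0.00 over all genes, and 44 of the 48 estimates were below 0. Every 13-week HD library lay below every 8-week HD library of its region, in both regions, for 21 of the 48 genes, against 11.3% of all genes. For 18 of them the 13-week HD libraries also lay below both WT libraries of the region, against 6.97% of all genes.

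Against WT mice of the same age, 15 of 49 genes were lower in HD mice at 13 weeks, which is 30.6%, against 4.26% of all genes. None was higher at this threshold with edgeR or with DESeq2, and 1 was higher and 23 were lower at an unadjusted p under 0.05. At 8 weeks no gene passed the test with edgeR or DESeq2, against 2.1% of all genes, and 4 had an unadjusted p under 0.05, of which 2 were higher and 2 lower. These comparisons and that of HD stages share the HD libraries. In both, 12 genes were lower, namely Atp2a2, Atp2b1, Atp2b2, Cacna1i, Cacna2d3, Cacng2, Camk1g, Camk2a, Camk2n1, Camk4, Camkk1 and Camkk2.

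Single libraries moved these counts. Without replicate 2 of the 8-week HD striatum, 27 of 49 genes were lower after onset (55.1%, against 7.45% of all genes) and 22 of 49 were lower than in WT mice at 13 weeks (44.9%, against 7.39%). All 17 genes called after onset and all 15 called against WT mice were called again without it. Leaving out another HD library gave between 5 and 20 calls after onset, and between 7 and 17 against WT mice at 13 weeks. Without the 13-week WT striatum 1 gene, Camkk2, was called against WT mice at 13 weeks, and without the 13-week WT cortex 7 were called. Marker sums of neurons and astrocytes also moved with the stage. By the test after onset, 3 of 10 markers of striatal projection neurons and 0 of 10 of cortical excitatory neurons were lower. For astrocytes 1 of 8 and for interneurons 3 of 6 were lower. Striatal projection neuron markers summed to 1446 and 1453 CPM in 13-week HD striatum and to 2358 to 7856 CPM in the other striatal libraries. Cortical excitatory neuron markers summed to 1338 and 1310 CPM in 13-week HD cortex and to 1984 to 2189 CPM in the other cortical libraries. Astrocyte markers were at 2935 to 3362 CPM in the 13-week HD libraries and at 3624 to 5844 CPM in the others, and interneuron markers at 407 to 823 CPM and at 1128 to 1369 CPM. The part of these in the results for calcium genes was not tested.

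**Figure D2:**
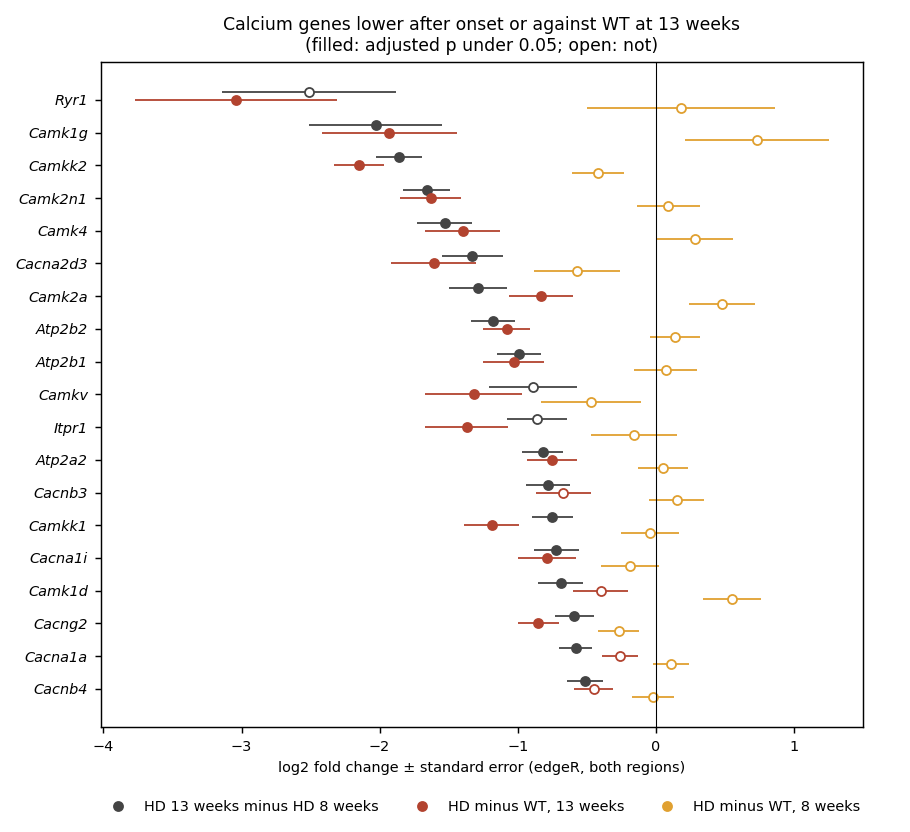
Log2 fold change with its standard error (x axis) of the 19 genes that were lower after symptom onset or against WT mice at 13 weeks, for HD mice at 13 against 8 weeks (grey), HD against WT mice at 13 weeks (red) and HD against WT mice at 8 weeks (yellow), with filled points for an adjusted p under 0.05. The grey and red points lie below 0 for all 19 genes, from -0.51 to -2.51 and from -0.26 to -3.04, and no yellow point is filled.

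Among the 10 alpha1 subunits, 2 of 8 tested were lower after onset and 1 of 8 was lower than in WT mice. Cacna1a, the pore of P/Q-type channels at presynaptic terminals, had the highest level of the 10. In striatum Cacna1a was at 137 and 138 CPM in 13-week HD mice, 186 and 241 CPM in 8-week HD mice, 161 CPM in the 13-week WT mouse and 189 CPM in the 8-week WT mouse. In cortex it was at 247 and 270.2 CPM in 13-week HD mice, 362 and 392 CPM in 8-week HD mice, 319 CPM in the 13-week WT mouse and 368 CPM in the 8-week WT mouse. The 13-week HD libraries were the lowest of each region, and Cacna1a fell by 0.58 ± 0.12 (SE, adjusted p = 0.0186) on the log2 scale after onset. Against WT mice its log2 fold change at 13 weeks was -0.26 ± 0.13 (SE, adjusted p = 0.263), which did not pass the test. Cacna1i, a T-type channel, was at 17.7 and 25.2 CPM at 13 weeks and 41.4 and 28.7 CPM at 8 weeks in HD mice, against 45.4 and 39.8 CPM in WT mice of these ages in striatum. Its cortical levels were 28.0 and 29.99 CPM at 13 weeks and 48.6 and 48.9 CPM at 8 weeks in HD mice, against 39.7 and 55.9 CPM in WT mice of these ages. The 13-week HD libraries were again lowest in both regions, with log2 fold changes of -0.72 ± 0.16 (SE, adjusted p = 0.0303) after onset and -0.79 ± 0.21 (SE, adjusted p = 0.0376) against WT mice. With sex as a term the call against WT mice was lost, at -0.78 ± 0.23 (SE, adjusted p = 0.0634).

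Of the other tested alpha1 subunits, Cacna1b (N-type), Cacna1c and Cacna1d (L-type), Cacna1e (R-type), Cacna1g and Cacna1h (T-type) had log2 fold changes from -1.30 to -0.06 after onset, none with an adjusted p under 0.05. The estimate at the lower end belongs to Cacna1g, which was at 53.8 CPM in the library that stood apart and at 2.33 CPM in its replicate, and without that library the estimate was -0.04 ± 0.46 (SE, adjusted p = 0.974). Cacna1h passed the test after onset and against WT mice without that library. Cacna1s, the channel of skeletal muscle, reached at most 5 counts and Cacna1f, the channel of photoreceptors, at most 6 counts in a library, and neither was tested.

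All 4 alpha2delta subunits had estimates below 0 after onset, and Cacna2d3 passed the test in both comparisons. Striatal Cacna2d3 measured 116 and 55.2 CPM in HD mice at 8 weeks, 39.0 and 26.6 CPM in HD mice at 13 weeks, and 169 and 138 CPM in the WT mice at 8 and 13 weeks. In cortex it measured 53.9 and 54.2 CPM in HD mice at 8 weeks, 23.3 and 20.3 CPM in HD mice at 13 weeks, and 58.3 and 46.6 CPM in the WT mice at 8 and 13 weeks. The level after onset was 38.2% of that before onset in striatum and 40.3% in cortex, and the groups did not overlap. Its log2 fold change was -1.33 ± 0.22 (SE, adjusted p = 0.0104) after onset and -1.61 ± 0.31 (SE, adjusted p = 0.012) against WT mice. Cacna2d1, the subunit bound by gabapentin and the most abundant of the 4, had a log2 fold change of -0.54 ± 0.17 (SE, adjusted p = 0.0923) after onset and Cacna2d2 one of -0.51 ± 0.20 (SE, adjusted p = 0.172). Without the library that stood apart both passed the test after onset, with -0.61 ± 0.17 (SE, adjusted p = 0.0403) and -0.69 ± 0.15 (SE, adjusted p = 0.012).

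Of the 4 beta subunits, Cacnb3 and Cacnb4 were lower after onset and none was called against WT mice. Cacnb4, the most abundant, was at 351 and 417 CPM (13-week HD), 566 and 468 CPM (8-week HD), 512 CPM (13-week WT) and 514 CPM (8-week WT) in striatum. Cortical Cacnb4 was at 527 and 442 CPM (13-week HD), 812 and 684 CPM (8-week HD), 679.5 CPM (13-week WT) and 778 CPM (8-week WT). Its 13-week HD values were the lowest of each region, though the gap was small in striatum, and the log2 fold change was -0.51 ± 0.13 (SE, adjusted p = 0.0408) after onset and -0.45 ± 0.14 (SE, adjusted p = 0.0837) against WT mice. Cacnb3 had striatal levels of 32.6 and 31.4 CPM at 13 weeks and 65.5 and 38.3 CPM at 8 weeks in HD mice, against 58.1 and 56.4 CPM in WT mice of these ages. The cortical levels of Cacnb3 were 99.5 and 88.2 CPM at 13 weeks and 175 and 170.5 CPM at 8 weeks in HD mice, against 129.9 and 129.8 CPM in WT mice of these ages. It fell by 0.78 ± 0.16 (SE, adjusted p = 0.02) on the log2 scale after onset, and against WT mice the value was -0.67 ± 0.20 (SE, adjusted p = 0.0616). Without the library that stood apart all 4 beta subunits passed the test in both comparisons. Against WT mice Cacnb3 then had -0.66 ± 0.13 (SE, adjusted p = 0.00511) and Cacnb4 had -0.45 ± 0.13 (SE, adjusted p = 0.0393).

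Among the 8 Cacng genes, Cacng2 (stargazin, a TARP) was lower in both comparisons and Cacng7 was the 1 gene higher after onset. Cacng2 in striatum was at 167 and 133 CPM in 13-week HD mice, 186 and 264 CPM in 8-week HD mice, 278 CPM in the 13-week WT mouse and 262 CPM in the 8-week WT mouse. In cortex Cacng2 reached 233 and 215 CPM in 13-week HD mice, 331 and 358 CPM in 8-week HD mice, 394 CPM in the 13-week WT mouse and 430.4 CPM in the 8-week WT mouse. No 13-week HD library overlapped another of its region, and the log2 fold change was -0.59 ± 0.14 (SE, adjusted p = 0.0339) after onset and -0.85 ± 0.15 (SE, adjusted p = 0.00692) against WT mice. Cacng3, a further TARP, had -1.27 ± 0.36 (SE, adjusted p = 0.0606) against WT mice, and without the library that stood apart it passed the test in both comparisons, while Cacng5, with -1.35 ± 0.30 (SE, adjusted p = 0.00949), passed against WT mice. Cacng7 rests on few reads. Its counts were 10 and 14 in 13-week HD striatum, 30 and 13 in 13-week HD cortex, 0 and 0 in 8-week HD striatum, 1 and 2 in 8-week HD cortex, 0 and 5 in the WT striatum and cortex at 13 weeks and 6 and 6 at 8 weeks. The adjusted p after onset was 0.0239. Cacng7 passed the count filter only through the 13-week HD libraries, where it is high, so its call is no evidence of a rise. With at least 1 CPM in every library it was not tested, and 0 of 44 genes were called higher after onset. Cacng6 had no count in any library, Cacng8 at most 5 counts, and Cacng1, the subunit of skeletal muscle, at most 26 counts, all in striatum, so that Cacng6 and Cacng8 were not tested and Cacng1 was tested only where WT libraries or single regions entered the fit.

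In the release channels, the neuronal IP3 receptor Itpr1 and the ryanodine receptor Ryr1 were lower in HD than WT mice at 13 weeks, and no gene of the 6 passed the test after onset. Striatal levels of Itpr1 were 182 and 208 CPM in 13-week HD mice, 522 and 221 CPM in 8-week HD mice, 672 CPM in the 13-week WT mouse and 532 CPM in the 8-week WT mouse. Cortical levels of Itpr1 were 208 and 236 CPM in 13-week HD mice, 423 and 365 CPM in 8-week HD mice, 422 CPM in the 13-week WT mouse and 332 CPM in the 8-week WT mouse. In striatum the library that stood apart lay close to the 13-week HD libraries. The log2 fold change of Itpr1 was -1.37 ± 0.30 (SE, adjusted p = 0.0223) against WT mice and -0.86 ± 0.22 (SE, adjusted p = 0.0553) after onset, and the latter was -1.06 ± 0.14 (SE, adjusted p = 0.000462) without that library. Ryr1, the isoform of skeletal muscle, which some neurons also express, measured 2.51 and 0.747 CPM at 13 weeks and 28.2 and 9.03 CPM at 8 weeks in HD mice, against 29.9 and 20.8 CPM in WT mice of these ages in striatum. In cortex its level was at most 4.62 CPM in any library. Ryr1 had a log2 fold change of -3.04 ± 0.73 (SE, adjusted p = 0.0323) against WT mice and of -2.51 ± 0.63 (SE, adjusted p = 0.0505) after onset, and the latter was -2.70 ± 0.64 (SE, adjusted p = 0.0291) without the library that stood apart.

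Ryr2, the most abundant ryanodine receptor here, had -0.62 ± 0.18 (SE, adjusted p = 0.0659) after onset, and -0.80 ± 0.11 (SE, adjusted p = 0.00064) without the library that stood apart. Ryr3 had 0.23 ± 0.41 (SE, adjusted p = 0.796). Itpr2, the isoform of glia, and Itpr3 had log2 fold changes of 0.10 ± 0.28 and 0.31 ± 0.52 against WT mice at 13 weeks, and neither passed the test. Ryr3 shares its 3′ end region with Aven on the opposite strand, and the strand setting of the counting is not given in the sources used here, so reads of these genes cannot be told apart.

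The SERCA pump of brain, Atp2a2, took 97.4% to 99.2% of the Atp2a counts and was lower in both comparisons. It measured 548 and 818 CPM in HD mice at 8 weeks, 312 and 422 CPM in HD mice at 13 weeks, and 547 and 610.2 CPM in the WT mice at 8 and 13 weeks in striatum. In cortex Atp2a2 measured 696 and 659.6 CPM in HD mice at 8 weeks, 409 and 384 CPM in HD mice at 13 weeks, and 777 and 678 CPM in the WT mice at 8 and 13 weeks. The 13-week HD libraries were lowest in each region, at 53.7% of the 8-week HD mean in striatum and 58.5% in cortex. Its fold change on the log2 scale was -0.82 ± 0.15 (SE, adjusted p = 0.0145) after onset and -0.75 ± 0.18 (SE, adjusted p = 0.0254) against WT mice. The latter was lost with sex as a term, at -0.64 ± 0.18 (SE, adjusted p = 0.0572). Atp2a1 and Atp2a3, the pumps of fast muscle and of blood cells, stayed at or below 6.32 CPM and were not called.

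Of the 4 PMCA pumps, Atp2b1 and Atp2b2 were lower in both comparisons and Atp2b3 and Atp2b4 in neither. Atp2b1, the most abundant of them, was at 1015 and 1031 CPM in 13-week HD mice, 3009 and 2228 CPM in 8-week HD mice, 3109 CPM in the 13-week WT mouse and 2623 CPM in the 8-week WT mouse in striatum. In cortex Atp2b1 was at 1197 and 1319 CPM in 13-week HD mice, 1985 and 1950 CPM in 8-week HD mice, 1743 CPM in the 13-week WT mouse and 1770 CPM in the 8-week WT mouse. Both regions showed the 13-week HD pair below all other libraries, with 39.1% of the 8-week HD mean left in striatum and 63.9% in cortex. The log2 fold change of Atp2b1 was -0.99 ± 0.16 (SE, adjusted p = 0.00936) after onset and -1.03 ± 0.22 (SE, adjusted p = 0.0172) against WT mice. Atp2b2, a fast pump of neurons and hair cells, was at 230.5 and 324 CPM in 13-week HD mice, 565 and 496 CPM in 8-week HD mice, 608 CPM in the 13-week WT mouse and 519 CPM in the 8-week WT mouse in striatum. Cortical Atp2b2 stood at 342 and 316 CPM in 13-week HD mice, 871 and 919 CPM in 8-week HD mice, 670 CPM in the 13-week WT mouse and 765 CPM in the 8-week WT mouse. Here 52.3% of the 8-week HD mean was left in striatum and 36.7% in cortex, with a log2 fold change of -1.18 ± 0.16 (SE, adjusted p = 0.00385) after onset and of -1.08 ± 0.17 (SE, adjusted p = 0.00474) against WT mice. Atp2b3 had -0.28 ± 0.13 (SE, adjusted p = 0.254) and Atp2b4 had -0.65 ± 0.42 (SE, adjusted p = 0.412) after onset.

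**Figure D3:**
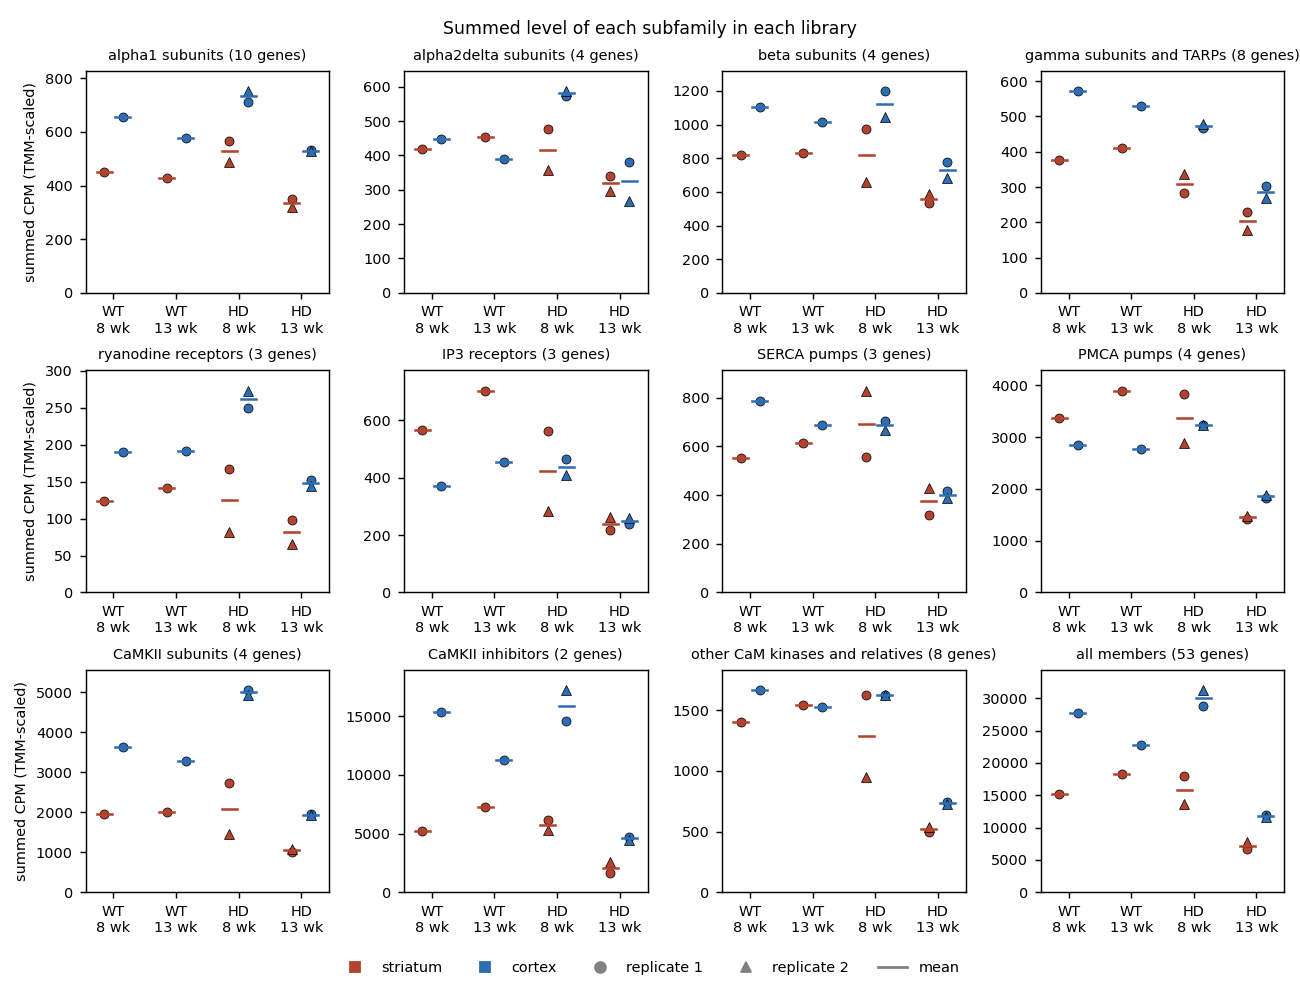
Summed CPM (TMM-scaled, y axis from 0) of the 11 subfamilies and of all 53 genes in each library, by genotype and age, with striatum in red, cortex in blue, circles for replicate 1, triangles for replicate 2 and bars for means. The sum over all 53 genes was 7215 CPM in 13-week and 15806 CPM in 8-week HD striatum, and 11779 and 30054 CPM in cortex.

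The summed level of the 53 genes was 7215 ± 826 CPM in 13-week HD striatum (SD, n = 2), against 15806 ± 3024 CPM at 8 weeks (SD, n = 2) and 18325 and 15253 CPM in the WT libraries at 13 and 8 weeks. In cortex it was 11779 ± 314 CPM against 30054 ± 1679 CPM (SD, n = 2 each), with 22695 and 27675 CPM in the WT libraries. Camk2n1 alone held 23% to 55.1% of the reads of the 53 genes, so the sum leans on it. The sums of the other subfamilies in 13-week HD mice were 40.2% to 76.4% of the 8-week HD mean in striatum and 38.7% to 72.3% in cortex. The alpha2delta subunits marked the upper end in striatum and the alpha1 subunits in cortex.

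Of the 4 CaMKII subunits, 1 passed the test in both comparisons. Camk2a, the alpha subunit of forebrain excitatory synapses, was lower after onset and against WT mice. In striatum Camk2a measured 662 and 726 CPM at 13 weeks and 1821 and 935 CPM at 8 weeks in HD mice, against 1177 and 1032 CPM in WT mice of these ages. In cortex it measured 1420 and 1378 CPM at 13 weeks and 4322 and 4261 CPM at 8 weeks in HD mice, against 2639 and 2979 CPM in WT mice of these ages. The 8-week HD cortex stood above both WT libraries, and the 13-week HD cortex below them. On the log2 scale its fold change was -1.29 ± 0.21 (SE, adjusted p = 0.011) after onset and -0.83 ± 0.23 (SE, adjusted p = 0.0471) against WT mice. Camk2b, the beta subunit, did not pass the test (-0.83 ± 0.22, SE, adjusted p = 0.0535 after onset), although its 13-week HD libraries were below all others in both regions, and it passed without the library that stood apart (-0.95 ± 0.20, SE, adjusted p = 0.0197). Camk2d and Camk2g had log2 fold changes of -0.01 ± 0.24 and -0.14 ± 0.14 (SE) after onset. As a share of the counts of these 4 genes, Camk2a took 73% and 71.7% in 13-week HD cortex against 80.6% to 86.2% in the other cortical libraries. In striatum its share was 65.3% and 67.2% after onset and 53% to 66.7% in the others, so the striatal ranges overlap.

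Camk2n1, an endogenous inhibitor of CaMKII and the most abundant of the 53 genes, fell in both comparisons. Its striatal levels were 1523 and 2468 CPM in 13-week HD mice, 6154 and 5206 CPM in 8-week HD mice, 7257 CPM in the 13-week WT mouse and 5200 CPM in the 8-week WT mouse. The cortical levels of Camk2n1 were 4500 and 4295 CPM in 13-week HD mice, 14454 and 17105 CPM in 8-week HD mice, 11152 CPM in the 13-week WT mouse and 15241 CPM in the 8-week WT mouse. After onset its mean was 35.1% of the 8-week HD mean in striatum and 27.9% in cortex, and the groups were apart. On the log2 scale Camk2n1 had -1.66 ± 0.17 (SE, adjusted p = 0.00166) after onset and -1.63 ± 0.22 (SE, adjusted p = 0.00215) against WT mice. The second inhibitor, Camk2n2, was not called and had log2 fold changes of 0.44 ± 0.42 (SE, adjusted p = 0.597) and 1.06 ± 0.64 (SE, adjusted p = 0.381). Its striatal level was 86.8 and 99.0 CPM (13-week HD), 24.6 and 125 CPM (8-week HD), 26.4 CPM (13-week WT) and 25.1 CPM (8-week WT), with the library that stood apart the highest. Without that library Camk2n2 rose after onset, with 1.05 ± 0.26 (SE, adjusted p = 0.0425).

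In the CaM kinase cascade and its relatives, 5 of 8 genes were lower after onset and 5 of 8 against WT mice, and Camkk2 had the lowest adjusted p of all 53 genes in both comparisons. Camkk2 in striatum was at 107 and 90.7 CPM in 13-week HD mice, 386 and 238 CPM in 8-week HD mice, 436 CPM in the 13-week WT mouse and 454 CPM in the 8-week WT mouse. In cortex it was at 155 and 159 CPM in 13-week HD mice, 649 and 697 CPM in 8-week HD mice, 702 CPM in the 13-week WT mouse and 834 CPM in the 8-week WT mouse. The highest 13-week HD level, 159 CPM in cortex, lay below the lowest of the other 8 libraries, 238.5 CPM in striatum. The log2 fold change was -1.86 ± 0.17 (SE, adjusted p = 0.000915) after onset, -2.15 ± 0.18 (SE, adjusted p = 0.000117) against WT mice at 13 weeks and -0.42 ± 0.19 (SE, adjusted p = 0.335) against WT mice at 8 weeks. Camkk1 was at 26.8 and 20.6 CPM at 13 weeks and 53.1 and 41.1 CPM at 8 weeks in HD mice, against 70.8 and 54.8 CPM in WT mice of these ages in striatum. Cortical Camkk1 was at 52.2 and 50.1 CPM at 13 weeks and 82.4 and 66.7 CPM at 8 weeks in HD mice, against 91.4 and 66.8 CPM in WT mice of these ages. It was lowest in the 13-week HD libraries of both regions, with -0.75 ± 0.15 (SE, adjusted p = 0.0216) after onset and -1.19 ± 0.20 (SE, adjusted p = 0.00597) against WT mice.

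Camk4, the nuclear kinase downstream of Camkk1 and Camkk2, measured 91.5 and 122 CPM in 13-week HD mice, 429 and 209 CPM in 8-week HD mice, 389 CPM in the 13-week WT mouse and 294 CPM in the 8-week WT mouse in striatum. In cortex Camk4 measured 114 and 98.5 CPM in 13-week HD mice, 296 and 305 CPM in 8-week HD mice, 194 CPM in the 13-week WT mouse and 221 CPM in the 8-week WT mouse. Its levels of 13-week HD mice did not overlap with the others, and the log2 fold change was -1.53 ± 0.20 (SE, adjusted p = 0.00487) after onset and -1.40 ± 0.27 (SE, adjusted p = 0.0118) against WT mice. Camk1g was at 79.5 and 16.8 CPM in HD mice at 8 weeks, 18.2 and 7.25 CPM in HD mice at 13 weeks, and 32.8 and 52.8 CPM in the WT mice at 8 and 13 weeks in striatum. Cortical Camk1g stood at 72.5 and 59.1 CPM in HD mice at 8 weeks, 15.0 and 13.9 CPM in HD mice at 13 weeks, and 35.3 and 50.3 CPM in the WT mice at 8 and 13 weeks. In striatum the groups overlapped through the library that stood apart, whose level of 16.8 CPM lay between the 13-week HD values. The log2 fold change of Camk1g was -2.03 ± 0.48 (SE, adjusted p = 0.0481) after onset and -1.93 ± 0.49 (SE, adjusted p = 0.0433) against WT mice, and -2.36 ± 0.26 (SE, adjusted p = 0.000577) after onset without that library.

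Camk1d, a further CaMKI isoform, was lower after onset, with -0.69 ± 0.16 (SE, adjusted p = 0.0349), and had -0.40 ± 0.20 (SE, adjusted p = 0.264) against WT mice. Striatal levels of Camk1d were 85.9 and 117 CPM in 13-week HD mice, 202 and 219 CPM in 8-week HD mice, 179 CPM in the 13-week WT mouse and 144 CPM in the 8-week WT mouse. In cortex Camk1d had 168 and 180.3 CPM in 13-week HD mice, 222 and 220 CPM in 8-week HD mice, 175 CPM in the 13-week WT mouse and 152 CPM in the 8-week WT mouse, so that the 13-week HD cortex overlapped with WT mice. Camkv, a kinase-like protein of synaptic vesicles, was at 121 and 114 CPM at 13 weeks and 410.3 and 126 CPM at 8 weeks in HD mice, against 383 and 374 CPM in WT mice of these ages in striatum. Cortical Camkv was at 106 and 105 CPM at 13 weeks and 173 and 151 CPM at 8 weeks in HD mice, against 203 and 224 CPM in WT mice of these ages. It passed the test against WT mice (-1.32 ± 0.35, SE, adjusted p = 0.0492) and not after onset (-0.89 ± 0.32, SE, adjusted p = 0.147). The striatal level of 126 CPM is that of the library that stood apart, and without it Camkv passed after onset too (-1.10 ± 0.22, SE, adjusted p = 0.0166). Camk1 and Camkmt, a calmodulin methyltransferase, were not called, with -0.29 ± 0.19 and 0.24 ± 0.31 (SE) after onset.

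**Figure D4:**
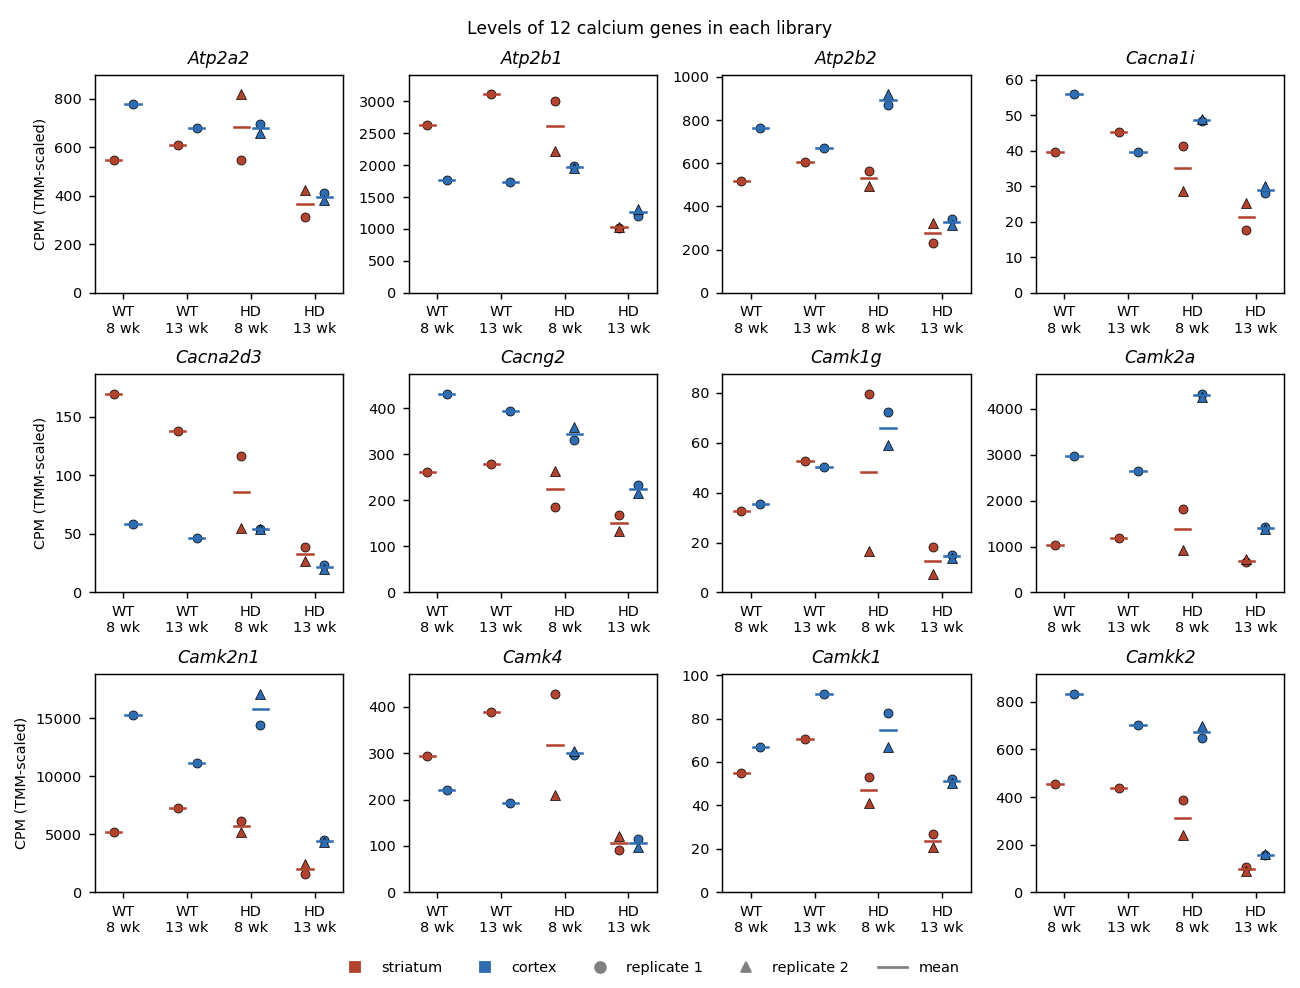
CPM (TMM-scaled, y axis from 0) of the 12 genes lower in both comparisons, in each library, by genotype and age, with striatum in red, cortex in blue, circles for replicate 1, triangles for replicate 2 and bars for means. In 11 of the 12 panels the 13-week HD libraries of each region lie below all others of that region, and in the panel of Camk1g they overlap with 1 striatal library of 8-week HD mice, at 16.8 CPM.

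The change from 8 to 13 weeks in HD mice was set against that in WT mice over all 12 libraries. Camkk2 was the 1 gene called, with a difference of -1.73 ± 0.27 (SE, adjusted p = 0.0479) in log2 fold change, against 0.116% of all genes. The estimate was below 0 for 44 of 49 genes, and 17 were below 0 at an unadjusted p under 0.05, as was 1 above 0. The call for Camkk2 was lost when any 1 library other than replicate 2 of the 8-week HD striatum was left out, with log2 values between -1.91 and -1.63 over all alternatives. With sex as a term it was lost too, at -1.91 ± 0.30 (SE, adjusted p = 0.0647), as it was with upper-quartile factors. Leaving out replicate 2 of the 8-week HD striatum, 10 of 49 genes were called, against 1.3% of all genes lower in that fit, namely Camkk2, Camk1g, Camk2a, Camk2n1, Camk4, Atp2b2, Cacnb3, Cacng3, Itpr1 and Ryr2, each below 0.

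By region, the change after onset passed the test for 2 of 49 genes in striatum (against 0.16% of all genes) and for 4 of 49 in cortex (against 0.591%). In striatum these were Atp2b1, with -1.32 ± 0.18 (SE, adjusted p = 0.0327), and Camkk2, with -1.62 ± 0.22 (SE, adjusted p = 0.034). In cortex they were Camkk2, with -2.11 ± 0.23 (SE, adjusted p = 0.0117), Camk2n1, with -1.85 ± 0.24 (SE, adjusted p = 0.0212), Camk2a, with -1.63 ± 0.27 (SE, adjusted p = 0.0447), and Atp2b2, with -1.45 ± 0.19 (SE, adjusted p = 0.0212). The difference between the regional changes passed the test for none with edgeR or DESeq2 (0 of all genes, or 0%), and 4 genes had an unadjusted p under 0.05. Without replicate 2 of the 8-week HD striatum 22 genes were called in striatum and 22 in cortex, and 4 differed between regions, each of 49 tested. The shares of all genes called in that fit were 7.02%, 7.98% and 1.02%. The genes that differed between regions in that fit were Atp2b1 (-0.92 ± 0.19, SE), Camk2b (-1.13 ± 0.19, SE) and Camkv (-1.20 ± 0.20, SE), each with the more negative change in striatum. Camk2n2 (1.35 ± 0.23, SE) went in the opposite direction. Over all alternatives the estimate ran from -1.20 to 0.54 for Camkv and from -0.96 to 1.35 for Camk2n2, so both changed sign. The fit without replicate 2 of the 8-week HD striatum has 1 library for that group, which is assumed to vary like the other groups. At 8 weeks, Camk2a (0.67 ± 0.14, SE, adjusted p = 0.0201) and Ryr2 (0.57 ± 0.14, SE, adjusted p = 0.0417) were higher in HD than WT mice without it, against 2.81% of all genes higher.

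The regions themselves differed for 25 of 49 genes over all 12 libraries. Of these, 8 were higher in striatum (16.3%, against 8.51% of all genes) and 17 were higher in cortex (34.7%, against 12.1%). The 8 include Cacng1, which had no count in cortex and entered the fit through striatum alone. With at least 1 CPM in every library, 6 of 44 genes were higher in striatum and 17 in cortex. The ryanodine receptors split, with Ryr2 higher in cortex (-1.70 ± 0.14 (SE, adjusted p = 6.33e-06)) and Ryr3 higher in striatum (2.90 ± 0.35 (SE, adjusted p = 0.000229)), as was Ryr1 (2.22 ± 0.52 (SE, adjusted p = 0.0123)). In striatum Ryr3 ranged from 19.0 to 57.0 CPM and in cortex from 3.05 to 8.03 CPM. Ryr2 ranged from 45.8 to 81.6 CPM in striatum and from 136 to 267 CPM in cortex, so for both genes the ranges did not overlap. The ranges of Ryr1 did overlap. In HD mice after onset Ryr1 had a mean of 1.63 CPM in striatum and 1.22 CPM in cortex, so the regions lay close together. Before onset these means were 18.6 and 3.29 CPM. The striatal and cortical levels of Ryr1 were 29.85 and 4.33 CPM in the older WT libraries and 20.78 and 1.79 CPM in the younger.

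Among the channel subunits, Cacna1h (1.35 ± 0.19), Cacna2d2 (1.50 ± 0.18), Cacna2d3 (0.94 ± 0.22) and Cacnb2 (0.86 ± 0.16) were higher in striatum, as was Cacng4 (2.59 ± 0.56), at few counts. Cacng1 was called too, but it passed the count filter only through striatum, where it is high. Its call is therefore no evidence of a regional difference. Cacna1a (-0.90 ± 0.09), Cacna1b (-0.45 ± 0.14), Cacna2d1 (-1.15 ± 0.13), Cacnb3 (-1.48 ± 0.14), Cacnb4 (-0.45 ± 0.10) and Cacng2 (-0.60 ± 0.10) were higher in cortex (log2 fold changes ± SE, striatum minus cortex, adjusted p from 1.52e-05 to 0.0104 for all of these but Cacng1 and Cacna1b, the latter with 0.04). The 2 most abundant members of the alpha2delta group, Cacna2d1 and Cacna2d2, thus had opposite regional differences. Cacna1h shares its 3′ end region with Tpsg1 on the opposite strand, Cacna1d with Chdh, Cacnb4 with A430018G15Rik and Camk2n2 with Gm49333, so reads of these pairs cannot be told apart.

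The kinases, inhibitors and pumps that passed the test over all 12 libraries were higher in cortex. Camk2g (-1.74 ± 0.11) and Camk2a (-1.33 ± 0.16), both inhibitors, Camk2n1 (-1.23 ± 0.15) and Camk2n2 (-1.38 ± 0.42), and Camk1 (-1.23 ± 0.18), Camkk2 (-0.85 ± 0.13) and Camkk1 (-0.69 ± 0.14) were higher in cortex. So were the pumps Atp2b4 (-1.07 ± 0.32), Atp2b2 (-0.45 ± 0.12) and Atp2b3 (-0.43 ± 0.10). Camk2b, Camk4, Itpr1, Atp2a2 and Atp2b1 did not pass the test, with log2 fold changes of 0.26 ± 0.22, 0.27 ± 0.19, 0.14 ± 0.21, -0.14 ± 0.12 and 0.28 ± 0.15 (SE). In the alternatives tried, 20 of the 25 regional calls held throughout, and those lost under at least 1 were Atp2b2, Atp2b4, Cacna1b, Camk2n2 and Ryr1. Without the library that stood apart 11 of 49 genes were higher in striatum and 20 in cortex, against 11.1% and 14.2% of all genes. The 6 genes added were Camk4 (0.40 ± 0.14 (SE, adjusted p = 0.0449)), Camkv (0.72 ± 0.16 (SE, adjusted p = 0.0054)) and Cacng5 (0.72 ± 0.22 (SE, adjusted p = 0.0245)), higher in striatum, and Cacna1g (-2.71 ± 0.33 (SE, adjusted p = 0.000214)), Camk2d (-0.77 ± 0.17 (SE, adjusted p = 0.00364)) and Cacng3 (-0.44 ± 0.12 (SE, adjusted p = 0.0133)), higher in cortex. Camk1 shares its 3′ end region with Ogg1 on the opposite strand.

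**Figure D5:**
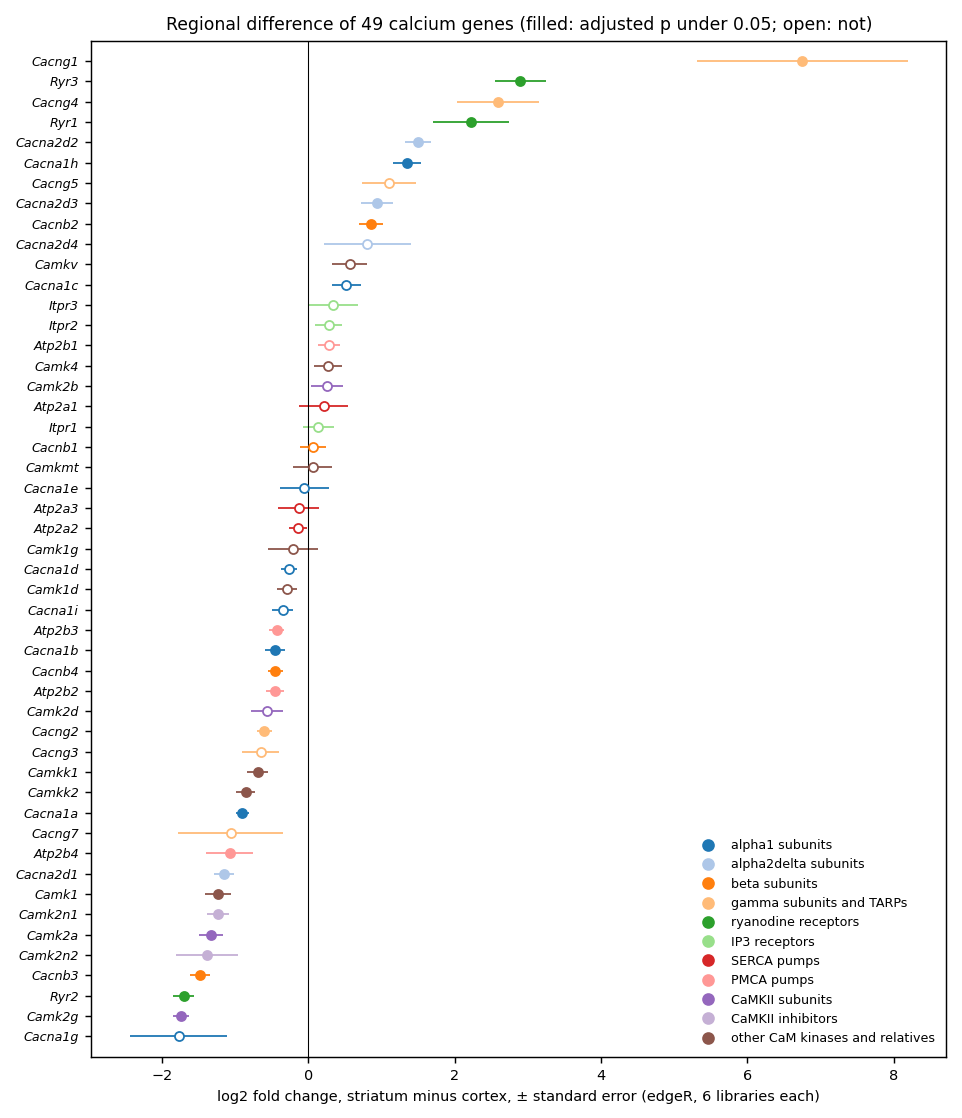
Log2 fold change between striatum and cortex (x axis, positive for higher in striatum) with its standard error for the 49 genes tested in 6 libraries of each region, coloured by subfamily, with filled points for an adjusted p under 0.05. The filled points comprise 8 genes higher in striatum and 17 higher in cortex, with Ryr3 at 2.90 and Ryr2 at -1.70.

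Other genes of calcium signalling were read from a list of 71 symbols, which held calmodulin, calcineurin, calcium exchangers, store-operated channels and related proteins, and of which 70 were in the files. After onset 12 of 64 tested passed the test, each lower (18.8%, against 4.53% of all genes), with a median log2 fold change of -0.34 over the list. Among those with the lowest adjusted p were Pcp4l1 (-1.09 ± 0.13 (SE, adjusted p = 0.00336)) and Pcp4 (-1.77 ± 0.25 (SE, adjusted p = 0.00659)), small calmodulin-binding proteins, and Ppp3ca (-1.08 ± 0.22 (SE, adjusted p = 0.0225)), the catalytic subunit of calcineurin. Against WT mice at 13 weeks 9 of 66 were lower (13.6%, against 4.26% of all genes) and 2 higher (3.03%, against 3.1%). Pcp4 (-1.97 ± 0.26 (SE, adjusted p = 0.00238)) and Ppp3r1 (-1.23 ± 0.20 (SE, adjusted p = 0.00491)), the regulatory subunit of calcineurin, were lower, and Trpc4 (1.77 ± 0.30 (SE, adjusted p = 0.00557)), a cation channel, was higher. Between regions 5 of 66 were higher in striatum (7.58%, against 8.51% of all genes) and 15 in cortex (22.7%, against 12.1%). Pcp4l1 (2.48 ± 0.13 (SE, adjusted p = 2.16e-07)) and Rem2 (3.21 ± 0.37 (SE, adjusted p = 0.000151)), an inhibitor of calcium channels, were higher in striatum, and Fkbp1b (-1.89 ± 0.23 (SE, adjusted p = 0.000152)), a ryanodine receptor partner, and Calm3 (-0.62 ± 0.08 (SE, adjusted p = 0.0002)) in cortex.

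Of these, Pcp4 measured 227 and 241 CPM in 13-week HD mice, 909 and 1416 CPM in 8-week HD mice, 1295 CPM in the 13-week WT mouse and 1011 CPM in the 8-week WT mouse in striatum. In cortex Pcp4 measured 144 and 114 CPM in 13-week HD mice, 343 and 269 CPM in 8-week HD mice, 374 CPM in the 13-week WT mouse and 352 CPM in the 8-week WT mouse. The 13-week HD libraries were the lowest of each region for Pcp4. Trpc4 was at 13.4 and 13.9 CPM in HD mice at 8 weeks, 13.7 and 17.3 CPM in HD mice at 13 weeks, and 8.94 and 5.68 CPM in the WT mice at 8 and 13 weeks in cortex. In striatum it was at 4.90 and 5.05 CPM in HD mice at 8 weeks, 8.65 and 11.1 CPM in HD mice at 13 weeks, and 4.015 and 2.29 CPM in the WT mice at 8 and 13 weeks. HD mice of both ages lay above both WT libraries in each region.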

How the data were processed

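RNAseq data of 12 libraries of mouse striatum and cortex were used, grouped by the sample labels. The authors deposited raw counts of reads per gene symbol. The submitters' processing notes name Bowtie2, bedtools and the mm10 build, and versions, annotation and counting rule are not given in the sources used here. Of 23282 rows, 4306 had no count and 44 repeated a symbol, none of them a gene reported here. Total counts lay between 8814386 and 12091201, and without molecular identifiers their precision covers counting error only. Replicates of the HD groups were further apart than counting noise allows (chi-square over degrees of freedom 7.23 to 78.2). The labels do not say that libraries are separate mice, so p-values measure the spread between these libraries. The ribosomal precursor Rn45s took 10.5% to 15.2% of HD counts and 4.32% to 5.62% of WT counts.

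All genes were fitted in R 4.3.3 with edgeR 4.0.16 (TMM, filterByExpr at a count of 10, quasi-likelihood test with robust settings, Benjamini-Hochberg threshold 0.05). For HD stages the fit took the 8 HD libraries, with terms for stage and region or with 1 mean per region and stage. Genotypes, regions and the difference in age change were compared over 12 libraries, with terms for region and for genotype and stage. Alternatives were DESeq2 1.42.0, upper-quartile factors, no filter, a minimum of 1 CPM, leaving out Rn45s, a replicate block, voom (limma 3.58.1) with a random effect of the mouse, sex as a term (read from Xist and Y-linked genes, since the labels give none) and leaving out each library. The fits were tested on simulated counts with 200 known changes of 1.5 on the log2 scale. The main fit recovered 158 after onset, 136 against WT mice at 13 weeks, 132 at 8 weeks and 175 between regions. For the difference in age change it recovered 72, in each HD region 103, and for the difference between regional changes 7. False calls made up 0% to 8.85% of its calls. With DESeq2 they made up 18.9% after onset and 16.3% against WT mice at 13 weeks. The simulated libraries were drawn independently from 1 mean profile, with no shared mouse and no library that stood apart. These shares therefore need not hold for the measured libraries.

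All 53 genes matched GENCODE M21. Named are the genes called in any of the 8 comparisons, the most abundant of each subfamily, those too low to test and, of the other calcium genes, up to 4 with the lowest adjusted p in a comparison, except an item that is not reported here. Others were named after their values were seen. Genes and lists were chosen with earlier results of these data known. Log2 ratios of CPM used a pseudocount of 0.5. Promoters are from a RefSeq table for GRCm38.p6.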

Additional observations from a re-analysis of the deposited data

Results flagged for a closer look

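Camkk2 had a difference in age change between HD and WT mice, by a test of the difference itself, of -1.73 on the log2 scale (edgeR, adjusted p = 0.0479). With sex as a term the adjusted p was 0.0647.

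For other genes every HD library of one region lay above the WT library of the same age and region and every HD library of the other region below it. These differences between regions were not tested, and each rests on 1 WT library a region. In 13-week HD mice, the log2 ratio to WT in striatum less that in cortex was 1.57 for Atp2a1, 0.82 for Itpr2, -0.41 for Cacna1b, -0.85 for Ryr3 and -1.37 for Cacna1c. In 8-week HD mice it was 1.50 for Atp2a1, 1.02 for Camk1, 0.49 for Atp2a2, 0.40 for Cacna2d2, -0.89 for Itpr1 and -1.39 for Camkmt. The values at 8 weeks include the striatal library that stood apart. Atp2a1 was at or below 6.32 CPM and Camkmt at or below 7.03 CPM in every library, and reads of Atp2a1 cannot be told apart from those of Rabep2 on the opposite strand.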

How the results depend on the processing

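No gene called in a comparison changed its direction there under any alternative tried. Of the genes not called, the estimate changed sign under at least 1 alternative for 3 of 31 after onset (Cacna1e, from -0.88 to 0.01, Camk2d, from -0.20 to 0.27, and Ryr3, from -0.10 to 0.68), for 11 of 34 against WT mice at 13 weeks, for 22 of 49 at 8 weeks and for 5 of 24 between regions. With sex as a term 13 of the 15 calls against WT mice at 13 weeks held, and 2 genes, Cacnb3 and Cacng3, were added. Calls after onset held under all alternatives for 5 of 17 genes (Atp2b1, Atp2b2, Camk2n1, Camk4 and Camkk2), calls against WT mice at 13 weeks for 1 of 15 (Camkk2), and regional calls for 20 of 25. The counts of genes called stayed within 1.5 times the reported ones with DESeq2, upper-quartile factors, no filter, at least 1 CPM, without Rn45s, with voom and with sex as a term, except the following. DESeq2 called 7 genes for the difference in age change against 1, 15 in HD striatum against 2 and 11 in HD cortex against 4. Upper-quartile factors and sex as a term each called 0 for the difference in age change, and no filter called 2 there and 5 in HD striatum. The cause was not tested.

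Leaving out 1 library gave 5 to 29 genes after onset, 1 to 22 against WT mice at 13 weeks, 0 to 2 at 8 weeks, 21 to 31 between regions, 0 to 10 for the difference in age change, 0 to 22 in HD striatum, 0 to 22 in HD cortex and 0 to 5 for the difference between regional changes. After onset the count was 7 and 10 without the 13-week HD striatum replicates 1 and 2, 6 and 5 without those of cortex, 7 and 8 without the 8-week HD cortex replicates, and 20 and 29 without the 8-week HD striatum replicates. Against WT mice at 13 weeks it was 7 without replicate 1 of 13-week HD striatum, 9 without replicate 1 of 13-week HD cortex, 1 without the 13-week WT striatum and 7 without the 13-week WT cortex. In HD striatum 14 and 22 genes were called without replicates 1 and 2 of the 8-week HD striatum and none without any other library, and in HD cortex 22 and 22 without these and none without any of the 4 cortical libraries. Such fits leave 1 library in a group, which is assumed to vary like the others.

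The labels give shared replicate numbers but do not say that they mark a mouse, and the replicates' deviations correlated weakly (r from 0.00 to 0.16). With a replicate block, 18 genes were called after onset, 27 between regions, 3 in HD striatum, 4 in HD cortex and 0 for the difference between regional changes. WT libraries carry no second number, so no replicate block could be fitted against WT mice. Depth limits Cacna1f, Cacna1s, Cacng1, Cacng6, Cacng7 and Cacng8, with at most 30 counts in a library.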
